A study of Mus musculus with 4 samples.

Results

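The Dlk1-Meg3 imprinted cluster was examined in poly(A) RNA-seq libraries of mouse embryonic stem cells (mESCs) that were wild-type (WT) or lacked Snf2l, with 2 libraries of each genotype. The genes were taken by name, namely Dlk1, Meg3, Rtl1, Rian and Mirg, and all 5 were found among the 24594 genes of the deposited count table. They were selected on their higher counts in the knockout libraries, as seen in earlier results of these data, so their differences between genotypes are given as a description and without a test. All 4 libraries came from untreated cells of a 129S6/SvEvTac line, which the methods of the study describe as grown with serum and leukemia inhibitory factor on gelatin. SNF2L, an ISWI chromatin remodeling ATPase, is encoded by the gene with the symbol Smarca1. The knockout (KO) was made by Cas9 editing and is 1 clone, so genotype and clone cannot be told apart. The methods call the RNA-seq replicates independent without saying what was kept separate, and the labels do not say, so the p-values below measure only the spread between these libraries, which may be technical.

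Imprinted genes are transcribed from the allele of only one parent. In this cluster the paternal allele expresses the protein-coding genes Dlk1, Rtl1 and Dio3, whereas the maternal allele expresses the non-coding RNAs Meg3 (also called Gtl2), Rian and Mirg. A control region between Dlk1 and Meg3, methylated on the paternal allele, governs this choice. The maternal RNAs are host to many small nucleolar RNAs (snoRNAs) and microRNAs, and the cluster is known in mESCs because Meg3 silencing by methylation occurs in cultured pluripotent lines.

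In the mm10 build the genes lie on chromosome 12 in the order Dlk1 (109452485 to 109463336, plus strand), Meg3 (109540996 to 109571729, plus), Rtl1 (109564900 to 109604418, minus), Rian (109603945 to 109661716, plus) and Mirg (109734981 to 109749458, plus). Dio3, at 110279230 to 110281097 on the plus strand, closes the cluster. The RefSeq span of Rtl1 overlaps that of Meg3 by 6830 bp and that of Rian by 474 bp on the opposite strand. The use of strand in counting is not stated, so reads of Rtl1 and of its antisense neighbours may not be separable.

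The Meg3 promoter is shown because Meg3 and the maternal RNAs downstream of it were all higher in the KO. It spans 250 bases before to 50 bases after the RefSeq start (chr12:109540746-109541045, plus strand, GRCm38, sequence from RefSeq).
Meg3 promoter: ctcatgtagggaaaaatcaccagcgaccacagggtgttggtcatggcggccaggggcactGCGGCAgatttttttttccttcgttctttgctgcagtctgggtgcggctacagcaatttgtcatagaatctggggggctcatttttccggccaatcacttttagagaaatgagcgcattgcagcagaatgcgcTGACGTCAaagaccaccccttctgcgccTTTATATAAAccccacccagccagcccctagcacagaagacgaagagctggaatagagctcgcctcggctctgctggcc
Capitals mark, in order, a match to TGCCGC on the minus strand (the letters that the imprint factor ZFP57 binds when methylated), a match to TGACGTCA (the cAMP response element) and matches to TATAAA on both strands, which overlap. These motifs were searched on both strands of 32851 RefSeq windows of the same length. TGCCGC was present in 11.6% of them, TGACGTCA in 1.79% and TATAAA in 13.6%. The windows at the RefSeq starts of Dlk1, Rian and Mirg held none of these letters, and that of Dio3 held only TATAAA. A window at a further RefSeq start of Meg3 (chr12:109545148-109545447) held none of them either. The Meg3 window printed here had 13 CpG dinucleotides, that at the further Meg3 start had 1 and that of Dio3 had 25, against 9 for Dlk1, 10 for Mirg, 0 for Rian and a median of 7 over all windows.

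The microRNAs show what the maternal RNAs carry. RefSeq lists mature sequences of 61 microRNA genes between Dlk1 and Dio3, of which 57 are on the plus strand, with 30 genes between Rian and Mirg and 10 within Mirg. The hairpins of miR-431, miR-433, miR-127, miR-434 and miR-136 lie on the plus strand within the coding exon of Rtl1, which is on the minus strand, so these microRNAs are fully complementary to Rtl1 mRNA. Their main arms are printed with the seed (bases 2 to 8) in capitals.
mmu-miR-431-5p: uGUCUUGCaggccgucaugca
mmu-miR-433-3p: aUCAUGAUgggcuccucggugu
mmu-miR-127-3p: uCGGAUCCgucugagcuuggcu
mmu-miR-434-3p: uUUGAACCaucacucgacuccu
mmu-miR-136-5p: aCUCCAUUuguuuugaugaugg
No seed is shared among these. Elsewhere in the cluster 9 seeds were each shared by a pair of differently named microRNAs, of which the following are from the large group between Rian and the end of Mirg.
mmu-miR-379-3p: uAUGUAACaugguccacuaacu
mmu-miR-411-3p: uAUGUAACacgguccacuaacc
mmu-miR-494-5p: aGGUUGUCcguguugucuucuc
mmu-miR-410-5p: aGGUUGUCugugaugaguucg
mmu-miR-376b-5p: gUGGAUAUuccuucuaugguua
mmu-miR-376c-5p: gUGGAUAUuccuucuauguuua

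The libraries held between 13771642 and 15608803 counts, and 13840 genes passed the filter on low counts, including all 5 cluster genes. The counts of Smarca1 were 620 and 626 in WT against 37 and 31 in the KO, which fits the labels. Some whole chromosomes stood apart. The median log2 fold change was -0.51 over 754 genes of chromosome 8 and -4.57 over 6 genes of chromosome Y. Over the 494 tested genes of chromosome 12 it was -0.01, and over all tested genes it was 0.00.

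The maternally expressed RNAs were higher in the KO. Levels are given as CPM, the count scaled by the TMM-adjusted library size. For Meg3 (Entrez gene 17263) the WT libraries held 1310 and 1523 counts, against 2337 and 1958 in the KO. Both KO libraries lay above both WT libraries, at 97.8 ± 2.21 CPM for WT against 138 ± 15.2 CPM for the KO (SD, n = 2 each), a ratio of 1.41. The fitted log2 fold change of Meg3 was 0.50 (SE 0.099).

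Rian (Entrez gene 75745), the host of a large tandem family of C/D snoRNAs, was the most abundant gene of the cluster. Its counts were 2785 and 3083 in WT and 4593 and 4003 in the KO. In CPM this is 203 ± 2.44 for WT against 277 ± 22.8 for the KO (SD, n = 2 each), and the log2 fold change was 0.45 (SE 0.090), with no overlap between genotypes. In Meg3 and Rian alike KO replicate 1 was the higher of the KO libraries, and the KO libraries spread more than the WT libraries.

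Mirg (Entrez gene 100040724), whose transcript carries microRNAs at the far end of the maternal unit, was counted 181 and 238 times in WT against 349 and 396 times in the KO. The mean was 14.4 ± 1.58 CPM for WT against 24.0 ± 2.49 CPM for the KO (SD, n = 2 each), a ratio of 1.67 and a log2 fold change of 0.73 (SE 0.133). Here KO replicate 2 was the higher, unlike in Meg3 and Rian, and the genotypes again did not overlap.

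The paternally expressed genes were far scarcer and were also higher in the KO. Dlk1 (Entrez gene 13386), a transmembrane protein related to the Notch ligands, gave 90 and 80 counts for WT against 126 and 130 for the KO. This is 5.92 ± 0.984 CPM in WT and 8.25 ± 0.303 CPM in the KO (SD, n = 2 each), with a log2 fold change of 0.49 (SE 0.171). The WT libraries, at 6.61 and 5.22 CPM, differed from each other more than the KO libraries did, at 8.03 and 8.46 CPM. Exact Poisson intervals at 95% of the raw Dlk1 counts overlap between genotypes. That of WT replicate 1 ends at 110.6, while those of KO replicates 1 and 2 begin at 105.0 and 108.6. The interval of WT replicate 2 ends below these, at 99.6. These bounds are not scaled for depth, and WT replicate 1 was the smallest library. Such intervals cover counting error at most, and they are too narrow where PCR copies were counted, since these are not independent molecules.

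Rtl1 (Entrez gene 353326), a retrotransposon-derived gene needed in the placenta, gave 29 and 36 counts for WT against 57 and 68 for the KO. The mean was 2.24 ± 0.154 CPM for WT against 4.03 ± 0.560 CPM for the KO (SD, n = 2 each), a ratio of 1.80. The log2 fold change of 0.84 (SE 0.229) was the largest of the 5 genes and had the largest SE. The Poisson intervals of WT replicate 2, 25.2 to 49.8 counts, and KO replicate 1, 43.2 to 73.9 counts, overlapped.

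**Figure D1:**
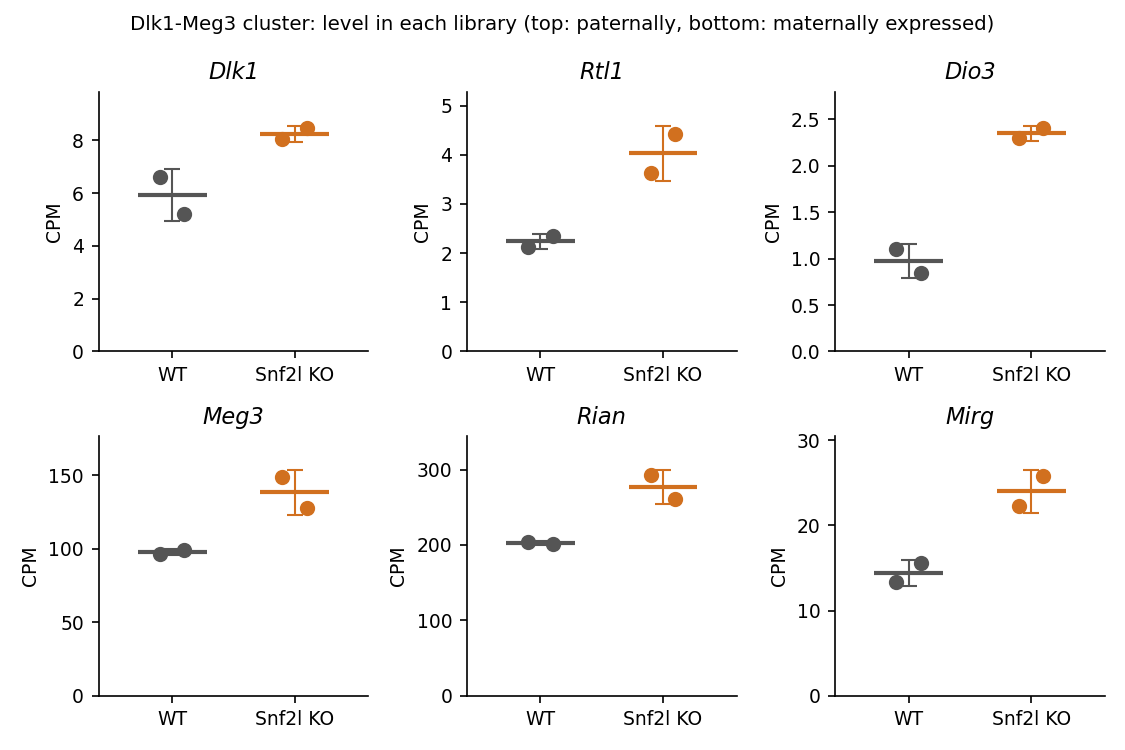
Level in CPM (vertical axes, each starting at 0) of 6 genes of the cluster in the WT and Snf2l KO libraries, with points for libraries, horizontal lines for means and bars for the SD of 2 libraries. In each panel both KO points lie above both WT points, from 0.975 to 2.35 CPM on average in Dio3 and from 203 to 277 CPM in Rian.

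In all 5 genes both KO libraries lay above both WT libraries, which was also so for 25.2% of the tested genes. The median log2 fold change of the 5 genes was 0.50. No adjusted p-value is given for these genes. Over all tested genes, 4.0% were higher and 5.21% lower at an adjusted p-value under 0.05 in edgeR. None of the 5 exceeded a 2-fold change, which the study requires of a differentially expressed gene (DEG, adjusted p-value under 0.01 and over 2-fold change). Of the tested genes, 0.990% were DEGs. Nothing is read from these shares, because the genes were chosen with this contrast known. In bulk RNA, more cells that express a gene and more RNA per expressing cell cannot be told apart.

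Dio3 (Entrez gene 107585), the deiodinase that inactivates thyroid hormone, was not among the genes chosen and was tested. It rose from 15 and 13 counts in WT to 36 and 37 in the KO, from 0.975 ± 0.179 to 2.35 ± 0.0800 CPM (SD, n = 2 each). Both KO libraries lay above both WT libraries. The fitted log2 fold change was 1.27 (SE 0.305), with an adjusted p = 0.0154 (Benjamini-Hochberg, quasi-likelihood F test of edgeR). The call was lost with DESeq2 (adjusted p = 0.165) and without WT replicate 2 (edgeR adjusted p = 0.125), and the adjusted p ranged from 0.00109 to 0.165 over all alternatives. Dio3os, transcribed in the opposite direction next to Dio3, was counted 1 and 0 times in WT, 8 and 2 times in the KO, and did not pass the filter.

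The table held 69 further rows between the start of Dlk1 and the end of Dio3, of which 61 are annotated as microRNAs and 5 as snoRNAs. Only 8 of them exceeded 3 counts in any library. The 59 microRNA rows of hairpin width together held between 8 and 21 counts per library, and 42 of them were at 0 in all 4 libraries. Poly(A) libraries are not made to capture mature microRNAs. The hairpin row with most reads was that of miR-410, which lies within Mirg and whose 5p arm is printed above. It held 7 and 4 counts in WT and 11 and 10 in the KO (log2 fold change 0.82, SE 0.509). The log2 fold change was 1.35 without WT replicate 1 and 0.39 without WT replicate 2. No p-value is given for it, since it may share reads with the selected gene Mirg.

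The row DQ267102, 72 bp wide and named for a snoRNA within Rian, held 1 and 2 counts in WT and 5 and 3 in the KO. Mir1906-1, 922 bp wide for a hairpin of 80 bp within Meg3, held 4 and 7 counts in WT and 8 and 6 in the KO. Neither passed the filter. Further rows with more reads also bear the names of small RNAs but the lengths of longer transcripts. The row Mir3072 is 1578 bp wide for a hairpin of 83 bp within Mirg. It held 115 and 168 counts in WT and 237 and 284 in the KO (log2 fold change 0.78, SE 0.159). These counts equalled between 63.5% and 71.7% of those of Mirg in the same library, and whether the same reads were counted in both rows is not stated. The rows DQ267101 (2624 bp) and AF357425 (5099 bp) are named for snoRNAs of 72 and 69 bp within Rian. Mirg and Rian were selected on their higher KO counts, so rows that may share their reads are described without a p-value. DQ267101 was at a log2 fold change of 0.34 (SE 0.117). Without KO replicate 2 it was 0.48, and without KO replicate 1 it was 0.18. AF357425 was also at 0.34 (SE 0.198) and its genotypes overlapped. It lay between 0.09 without KO replicate 1 and 0.56 without KO replicate 2. The count of DQ267101 equalled between 15.7% and 18.2% of that of Rian, and whether these rows share reads with Rian was not tested.

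**Figure D2:**
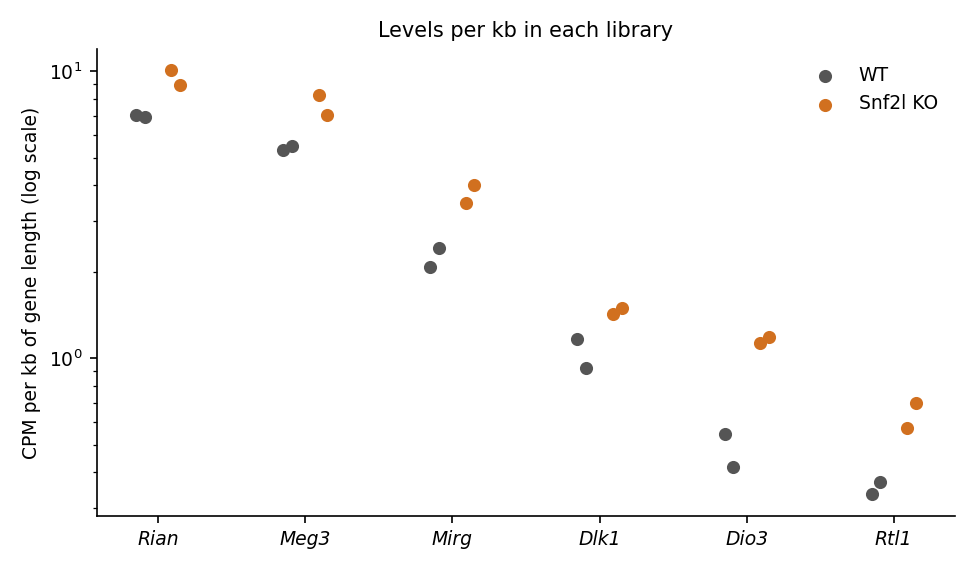
Level in CPM per kb of deposited gene length (vertical log axis) of Rian, Meg3, Mirg, Dlk1, Dio3 and Rtl1 in each WT and Snf2l KO library. The order of the genes is the same in both genotypes, with the 3 maternal RNAs above the 3 paternal genes.

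Levels of different genes were compared per kb of gene length. In WT the order was Rian (6.97 ± 0.0837 CPM per kb), Meg3 (5.41 ± 0.122), Mirg (2.25 ± 0.246), Dlk1 (1.05 ± 0.174), Dio3 (0.480 ± 0.0884) and Rtl1 (0.352 ± 0.0243; SD, n = 2 each). Neighbours in this order did not overlap between WT libraries. The separation of Dio3 from Rtl1 rests on Dio3 counts of 15 and 13, whose Poisson intervals reach from 6.9 to 24.7 counts. In the KO the order was the same, from 9.51 ± 0.784 CPM per kb for Rian to 0.634 ± 0.0881 for Rtl1. How the deposited lengths, 18089 bp for Meg3 and 29087 bp for Rian, were made is not stated. If they join the exons of all annotated transcripts, a level per kb is understated where mainly a short transcript is made.

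The proportions between maternal RNAs can be read within each library. The ratio of Rian to Meg3 per kb was 1.32 and 1.26 in WT and 1.22 and 1.27 in the KO, so the genotypes overlapped. The ratio of Mirg to Meg3 per kb was 0.390 and 0.442 in WT and 0.422 and 0.571 in the KO, which also overlapped. Summed per kb, the 3 maternal RNAs were at 14.4 and 14.8 CPM per kb in WT and 21.8 and 20.02 in the KO. The 3 paternal genes were at 2.05 and 1.71 in WT and 3.12 and 3.38 in the KO. The ratio of these sums was 7.05 and 8.68 in WT and 6.98 and 5.93 in the KO. Both KO libraries were thus below both WT libraries, but WT replicate 1 and KO replicate 1 lay closer to each other than the WT libraries did. Counts alone do not tell the alleles apart, so the parental origin of these reads was not measured.

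To see whether the difference extended beyond the cluster, the nearest 10 tested genes to the left and to the right were taken. Of these 20 genes, 0 had an adjusted p-value under 0.05 in edgeR, 1 had an unadjusted p-value under 0.05 and 0 were DEGs, against 9.21% of all tested genes at the adjusted and 22.2% at the unadjusted threshold. DESeq2 gave 0 genes at its adjusted threshold and 1 at the unadjusted. Their median log2 fold change was 0.01, with a range from -0.71 to 0.40. Both KO libraries lay above both WT libraries in 5 of the 20, and below in 2, against 25.2% and 25.3% of all tested genes. Those above were Wars (0.12), Wdr25 (0.24) and Begain, the nearest genes to Dlk1, and Ppp2r5c and Mok beyond Dio3. Those below were Slc25a47 (-0.71) and Tecpr2 (-0.20). The gene at the unadjusted threshold was Mok, a protein kinase gene beyond Dio3, at 0.40 on the log2 scale (SE 0.131, edgeR adjusted p = 0.0708). The nearest tested gene on the Dlk1 side, Begain, which lies 384.2 kb away and codes for a protein of neuronal synapses, had 17 and 25 counts in WT and 26 and 33 in the KO (0.39, SE 0.303, edgeR adjusted p = 0.504), and it ranged from 0.19 without KO replicate 2 to 0.60 without WT replicate 2. On the Dio3 side the nearest was Ppp2r5c, a regulatory subunit of protein phosphatase 2A that lies 166.0 kb away, with 2382 and 2596 counts in WT and 2921 and 3037 in the KO (0.16, SE 0.088, edgeR adjusted p = 0.322). With 1 library left out, at most 1 of the 20 had an adjusted p-value under 0.05, which happened without WT replicate 2 and without KO replicate 2. Along the chromosome, the 44 windows of 1 Mb that held at least 5 tested genes outside the cluster had medians between -0.20 and 0.17.

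**Figure D3:**
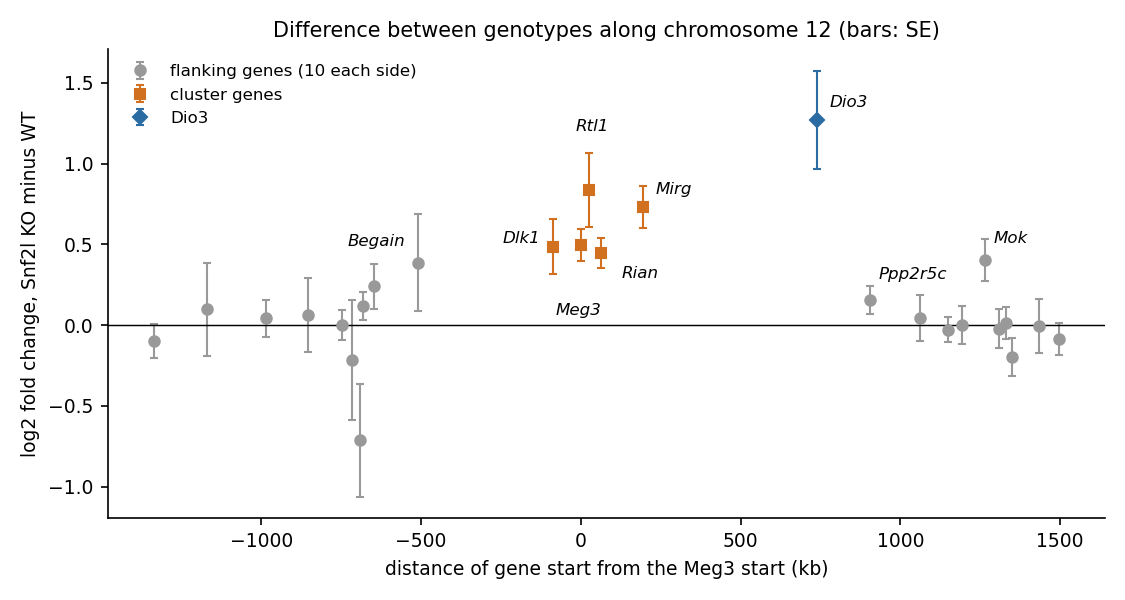
Log2 fold change between Snf2l KO and WT (vertical axis, bars are SE) against the distance in kb of each gene's start from that of Meg3, for the cluster genes, Dio3 and the 10 tested genes on either side. The cluster genes and Dio3 lie between 0.45 and 1.27, and the flanking genes between -0.71 and 0.40.

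Genes that set or keep imprints were examined next. Of 24 tested, 2 rose and 2 fell at an adjusted p-value under 0.05 (9.21% of all tested genes did either), 0 were DEGs and the median log2 fold change was 0.01. Dnmt3a, a de novo DNA methyltransferase, rose from 306 ± 2.19 to 448 ± 5.59 CPM (log2 fold change 0.55, SE 0.082, edgeR adjusted p = 6.81e-04, n = 2 each). Dppa3 (also called Stella), which protects the maternal genome from demethylation in the zygote, fell from 19.1 ± 2.21 to 10.4 ± 1.61 CPM (-0.88, SE 0.148, edgeR adjusted p = 0.00143). Zfp57, the zinc finger protein that holds methylation at imprinted control regions, rose by a small amount (0.28, SE 0.082, edgeR adjusted p = 0.0484) and lost the call in 6 of 13 alternatives. Ctcf, the insulator protein, was at -0.53 (SE 0.084, edgeR adjusted p = 0.00103) and lies on chromosome 8, where the median gene was at -0.51. In Dnmt3a, Dppa3, Zfp57 and Ctcf the genotypes did not overlap. Without KO replicate 1 the number under the adjusted threshold was 7.

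The control region of the Dlk1-Meg3 cluster is methylated on the paternal allele. Genes of other imprinted loci that carry methylation on the paternal allele, in a control region or elsewhere, were set beside it. Of 5 tested, 1 rose and 1 fell at an adjusted p-value under 0.05, both of them DEGs, where over all tested genes 4.0% rose, 5.21% fell and 0.990% were DEGs. H19, a maternally expressed RNA, fell from 992 and 1130 counts to 111 and 96 (log2 fold change -3.46, SE 0.122, edgeR adjusted p = 1.88e-10), and the paternally expressed growth factor gene Igf2 rose from 151 and 182 counts to 693 and 578 (1.83, SE 0.127, edgeR adjusted p = 9.20e-07). At that locus the maternal and the paternal gene thus went opposite ways. Dlk1, Meg3, Rtl1, Rian and Mirg were all higher, but they were selected for that, so no contrast is drawn. Whether the loci differ was not tested. At the Zdbf2 locus, 0 of 3 genes passed. Zdbf2 was at -0.24 (SE 0.150, edgeR adjusted p = 0.392), and its genotypes overlapped. It was lower past the threshold without WT replicate 2 (-0.50, edgeR adjusted p = 0.0173) and without KO replicate 1 (-0.42, edgeR adjusted p = 0.00369), and its sign turned without WT replicate 1 (0.07). Gpr1 was at -0.67 with an edgeR adjusted p = 0.234. Adam23 was at 0.08, its edgeR adjusted p being 0.689, and its sign turned without KO replicate 1. Rasgrf1 had 1 and 3 counts in WT and 0 in both KO libraries.

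Because the maternal RNAs are hosts of small RNAs, other such genes were compared. Of 17 tested host genes of snoRNAs from elsewhere in the genome, 0 had an adjusted p-value under 0.05 in edgeR or DESeq2 and 2 had an unadjusted p-value under 0.05, where 9.21% and 22.2% of all tested genes did in edgeR. Their median log2 fold change was -0.08, with a range from -0.33 to 0.39. Of 15 genes for the processing of microRNAs and snoRNAs that were tested, 0 passed the adjusted threshold in either tool and 2 the unadjusted threshold in edgeR, against the same shares of 9.21% and 22.2%, with a range from -0.25 to 0.32.

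The Notch pathway, whose ligands Dlk1 resembles, had 26 of 30 genes tested and a median log2 fold change of 0.03. Only Dll1, a canonical ligand, passed the adjusted threshold and was a DEG, against 9.21% and 0.990% of all tested genes. It rose from 49 and 62 counts in WT to 142 and 138 in the KO (1.23, SE 0.172, edgeR adjusted p = 4.05e-04). Of the genes derived from the same family of retrotransposons as Rtl1, 9 of 11 were in the table and 4 were tested. At an adjusted p-value under 0.05 in edgeR 1 rose and 0 fell, against 4.0% and 5.21% of all tested genes. At the unadjusted threshold 3 of the 4 passed, against 22.2% of all tested genes. Their median log2 fold change was 0.24, with a range from -0.70 to 0.93. The gene that rose was Peg10, which is imprinted as well, at 262 ± 37.7 CPM in WT and 340 ± 35.3 CPM in the KO (0.38, SE 0.107, edgeR adjusted p = 0.0391, n = 2 each). It lost this call in 4 of 13 alternatives, among them those without WT replicate 2 and without KO replicate 1.

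The cell type given in the labels was checked with 12 markers of pluripotent cells. All were tested, with Pou5f1 between 16171 and 20956 counts and Nanog between 6169 and 7428 counts per library. Of these, 1 was higher (Klf4) and 1 lower (Zfp42, on chromosome 8) in the KO at an adjusted p-value under 0.05 in edgeR. Of all tested genes 4.0% were higher and 5.21% lower, against which the counts of markers here and of the other cell types can be read. Fibroblast and endoderm markers were low and summed to more in the KO, whereas neural markers summed to less. The summed level of 10 fibroblast markers was 15.7 and 12.7 CPM in WT and 28.8 and 29.1 CPM in the KO, with 2 of 6 tested markers higher (Col3a1 and Col1a1) and Lum and Fap at 0 in all libraries. That of 10 endoderm markers was 17.6 and 16.3 CPM in WT and 27.3 and 27.8 CPM in the KO, with 4 of 6 tested markers higher, Afp at 0 and Ttr at no more than 1 count. The sum of 10 neural markers was lower in the KO, at 183 and 184 CPM against 254 and 269 CPM, with 1 marker higher and 4 lower of 8 tested and Dcx at 0. The neural marker with most counts was Tubb3, on chromosome 8, with 1845 and 2418 counts in WT and 1454 and 1533 in the KO. Of the 4 lower markers, Tubb3 and Sox1 lie on chromosome 8, at log2 fold changes of -0.61 and -0.59. The median gene of that chromosome was at -0.51. Pax6 and Nes, on other chromosomes, were at -1.18 and -1.06. The higher marker was Neurod1, at 0.93. The part of such cells in the levels of the Dlk1-Meg3 genes was not tested.

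The genes nearest in pattern to Rian were sought over the 4 libraries, by Euclidean distance of log2 CPM after centring each gene on its mean. The 5 nearest outside the cluster were Lax1 (distance 0.0227), Prune2 (0.0320), Jph2 (0.0355), Inhbb (0.0355) and Pdgfc (0.0408), none of which is on chromosome 12. Of these, Inhbb, a subunit of activin, had 118 ± 1.97 CPM in WT and 159 ± 9.37 CPM in the KO (SD, n = 2 each). Lax1 held only 13 to 22 counts per library and Jph2 14 to 24, so their distances rest on few reads. Within the cluster, Meg3 was at a distance of 0.0808, with 25 tested genes closer to Rian than it, whereas Mirg was at 0.429, with 4073 closer. With 4 libraries in 2 groups, such distances mainly rank genes by the size of the difference between genotypes.

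**Figure D4:**
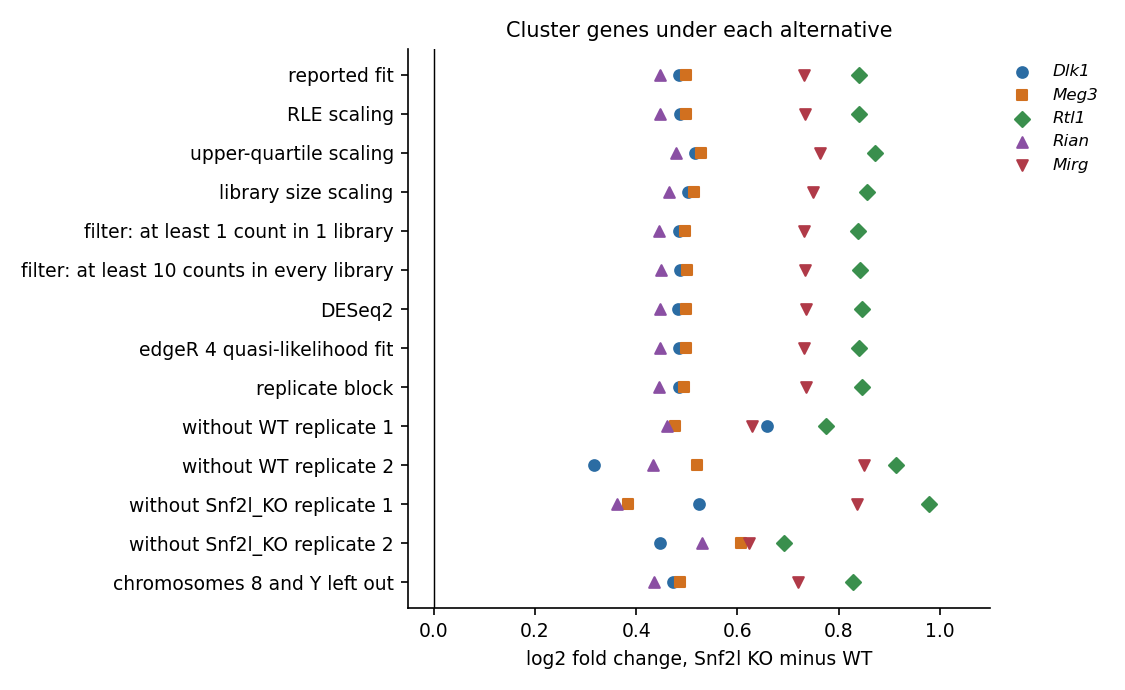
Log2 fold change between Snf2l KO and WT (horizontal axis) of Dlk1, Meg3, Rtl1, Rian and Mirg in the reported fit and under each of 13 alternatives (rows). All points lie above 0, and the widest spread is that of Dlk1, from 0.32 without WT replicate 2 to 0.66 without WT replicate 1.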

How the data were processed

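RNA-seq reads had been aligned by the authors to mm10 with QuasR (HISAT2, spliced alignment), and reads were quantified per gene over UCSC Known Genes, keyed by Entrez identifier. The deposited counts are raw whole numbers, and the table also holds a gene length in bp. The labels name a stranded library kit and the methods an unstranded one. Of 24594 genes, 24570 were matched to RefSeq (GRCm38) by Entrez identifier, and strands were taken from GENCODE M21.

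Counts of all 4 libraries were analysed with edgeR 4.0.16 in R 4.3.3. Genes were filtered with filterByExpr (minimum count 10), scaled by TMM and tested with legacy glmQLFit and glmQLFTest (two-sided), with genotype as the only term and Benjamini-Hochberg adjustment over 13840 genes. SE was derived from the fold change and F statistic. CPM values use TMM-scaled library sizes, and a prior count of 2 was used for log2 CPM. Alternatives were other scalings, filters and tools (DESeq2 1.42.0), a replicate block, each library left out, and chromosomes 8 and Y left out.

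The cluster genes and gene lists were chosen with earlier results of these data known. Genes named are the cluster genes, rows between Dlk1 and Dio3 with over 3 counts, Smarca1, the nearest flanking genes and flanking or list genes with an adjusted p-value under 0.05. Members of the paternally methylated loci without such a value, flanking genes whose genotypes did not overlap, and markers named were chosen after their values were seen. Of the list symbols, Snhg7, Cytor, Rtl8c and Rtl10 were not matched, and Cmklr2 is another name of Gpr1. Annotated promoters of Rtl1 were not used here.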

Additional observations from a re-analysis of the deposited data

How the results depend on the processing

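Depth limits Rtl1, Dlk1 and Dio3 most, with 13 to 130 counts per library, and 2 libraries of 1 clone per genotype limit all comparisons. With each library left out in turn, the log2 fold change ranged from 0.32 to 0.66 for Dlk1, 0.38 to 0.61 for Meg3, 0.69 to 0.98 for Rtl1, 0.36 to 0.53 for Rian and 0.62 to 0.85 for Mirg. Since the genotypes do not overlap in these genes, their sign could not turn by leaving out a library.

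Across all genes, the reported fit gave 137 DEGs and, at the adjusted threshold of 0.05, 1274 genes. These numbers were 88 and 785 with DESeq2, between 139 and 187 and between 829 and 1932 with 1 library left out (lowest without WT replicate 1 and highest without KO replicate 1 for the adjusted p-value), and 574 for the adjusted p-value with chromosomes 8 and Y left out. A replicate block gave 223 DEGs and 3471 genes at the adjusted threshold. It also gave 2 flanking genes, 10 imprint regulators, 5 Notch pathway genes, 2 snoRNA hosts and 1 gene of small RNA processing. Ppp2r5c and Zdbf2 passed with it (adjusted p = 0.0425 and 0.00231 in edgeR). Deviations of same-numbered libraries correlated at 0.196 over genes, but 2 pairs do not establish a pairing, and the block left 1 residual degree of freedom.

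With 1 library left out, the numbers under the adjusted threshold were 0 to 1 for the flanking genes, 3 to 7 for imprint regulators, 1 to 2 for the Notch pathway, 0 to 1 for the Rtl family, 0 to 1 for snoRNA hosts, 2 to 3 for the paternally methylated loci and 0 to 2 for small RNA processing, the last being highest without KO replicate 1. Without chromosomes 8 and Y, 2 imprint regulators were called, since Ctcf was no longer in the fit and Zfp57 lost its call, and 0 of the Rtl family. The Rtl family also had 0 when at least 1 count in 1 library was required. Of 231 alternative values for 18 other named genes, 12 lost and 6 gained a call and 2 reversed, namely Zdbf2 (0.071 without WT replicate 1, within a leave-one-out range from -0.495 to 0.071) and Adam23 (-0.042 without KO replicate 1, range from -0.042 to 0.203). The cause of these moves was not tested. Without gene length, the ratio of Rian to Meg3 in WT was 2.08 in place of 1.29, and that of Mirg to Meg3 was 0.147 in place of 0.416.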
